A study of Mus musculus with 4 samples.

Results

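A set of 9 genes whose proteins read or act on histone H3 trimethylated at lysine 9 (H3K9me3) was followed in mouse embryonic stem cells depleted of Hnrnpk. They were the HUSH complex genes Fam208a, Mphosph8 and Pphln1 with Morc2a, the HP1 genes Cbx1, Cbx3 and Cbx5, and Atrx with Daxx. The 9 genes were chosen by name out of 22138 in the table, and all 9 passed the filter on low values. Of these, 8 were found by symbol, and Fam208a was found by its Ensembl identifier, listed under the older symbol D14Abb1e. TT2 is a mouse embryonic stem cell line, given as female with the background C57BL/6xCBA, and it was kept feeder-free in medium with serum and LIF. Control siRNA (n = 2) or Hnrnpk siRNA (n = 2) was transfected at 100 nM and again 24 hours later at 50 nM, and RNA was taken about 72 hours after the second transfection. The series calls the 2 libraries of a group biological replicates; the labels do not say whether they came from separate cultures, so the p-values measure the spread between these libraries. Cells in both groups were transfected, and no untransfected library was analysed here.

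H3K9me3 marks silent chromatin, and in embryonic stem cells it covers many transposable elements and some genes. HUSH spreads the mark together with the methyltransferase SETDB1: TASOR (the Fam208a product) is its scaffold, MPP8 (from Mphosph8) binds H3K9me3 through a chromodomain, and periphilin (from Pphln1) binds RNA. MORC2 is an ATPase that HUSH recruits to compact chromatin. The HP1 proteins HP1β (Cbx1), HP1γ (Cbx3) and HP1α (Cbx5) bind H3K9me3 and bring other silencing proteins to it. ATRX is a chromatin remodeller that recognises H3K9me3, and its partner DAXX is a chaperone that deposits the histone variant H3.3. The series title links hnRNP K to SETDB1-mediated silencing, and the comparison asks what happened to the transcripts of the proteins that read and use the mark.

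After Hnrnpk siRNA, 2 of the 9 genes were lower, 1 was higher and 6 were not called. Fam208a and Mphosph8, both of the HUSH complex, fell by 31.3% and 23.5% in mean RPKM, and Cbx5, the HP1α gene, rose by 20.2%. A gene was called at a limma adjusted p under 0.05 over the 12486 genes tested. That rule called 67.2% of all genes tested, 32.2% higher and 35.0% lower, so the 3 calls among 9 genes stand beside a background in which most genes were called. The median size of the log2 change was 0.10 over the 9 genes and 0.32 over all genes tested. Under 15 alternative settings of the analysis, the Fam208a and Mphosph8 calls held in all, and the Cbx5 call was lost in 5. RPKM, reads per kilobase of gene scaled to the size of the library, measures a share of the RNA, so fewer cells of a type and less RNA per cell cannot be told apart.

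The sequences before the start sites of the 3 called genes are shown because Fam208a and Mphosph8 were lower together and Cbx5 went the other way. Each is the 250 bases before the start on the coding strand, from RefSeq (GRCm38.p6), and capitals mark matches on either strand to the motifs CCCTCCC, a C-rich stretch of the kind hnRNP K is known to bind, CCGGAAG, a core of ETS sites, and CCAAT, the core of NF-Y sites. The windows are chr14:27428584-27428833 (plus strand), chr14:56667998-56668247 (plus strand) and chr15:103239853-103240102 (minus strand).
Fam208a: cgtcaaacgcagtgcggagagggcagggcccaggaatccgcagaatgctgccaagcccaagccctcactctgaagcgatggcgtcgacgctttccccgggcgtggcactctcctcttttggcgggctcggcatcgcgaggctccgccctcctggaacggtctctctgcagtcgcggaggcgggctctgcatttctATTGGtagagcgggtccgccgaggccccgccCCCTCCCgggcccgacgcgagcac
Mphosph8: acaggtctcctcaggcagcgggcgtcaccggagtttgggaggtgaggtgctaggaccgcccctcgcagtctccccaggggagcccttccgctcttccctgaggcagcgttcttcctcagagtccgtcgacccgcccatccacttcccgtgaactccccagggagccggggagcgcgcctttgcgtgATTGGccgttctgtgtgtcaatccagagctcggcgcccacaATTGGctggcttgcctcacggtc
Cbx5: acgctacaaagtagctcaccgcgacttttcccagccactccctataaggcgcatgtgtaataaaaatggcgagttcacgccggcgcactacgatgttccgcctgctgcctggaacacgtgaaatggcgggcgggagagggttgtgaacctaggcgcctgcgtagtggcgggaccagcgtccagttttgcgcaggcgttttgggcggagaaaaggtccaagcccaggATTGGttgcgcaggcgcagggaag
All 3 windows hold a match to CCAAT, read as ATTGG on the strand shown, with 1 in Fam208a, 2 in Mphosph8 and 1 in Cbx5. Of the 6 genes not called, Atrx holds 3 matches to CCAAT, the most of the 9, and Morc2a and Daxx hold 1 each, so the motif does not set the called genes apart. CCAAT was found in 33.8% of the 32851 RefSeq windows of this length. The Fam208a window also holds 1 match to CCCTCCC, found in 19.7% of all windows, as does the window of Cbx3, which was not called, and none of the 3 holds CCGGAAG, found in 6.91%. These windows are rich in CpG dinucleotides, with 27 in Fam208a, 19 in Mphosph8 and 22 in Cbx5 against a median of 6 over all windows. Windows were found for all 9 genes, and Atrx had the fewest CpG dinucleotides (6) and Pphln1 the most (46). For Morc2a and Cbx3 the RefSeq start lay 246 and 256 bases from the gene start given below, and their windows lie mostly within those genes.

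The targeted gene was lower in both Hnrnpk siRNA libraries. Hnrnpk had 236 and 226 RPKM after control siRNA and 68.0 and 70.5 RPKM after Hnrnpk siRNA, a ratio of means of 0.2997 (log2 change -1.73, limma adjusted p = 6.59e-08).

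The levels of the 9 genes spanned 7.28 to 72.5 RPKM in control cells. Cbx1 was highest, followed by Morc2a, Daxx, Cbx5, Atrx, Mphosph8, Fam208a, Pphln1 and Cbx3. The control values of Morc2a and Daxx overlapped, as did those of Daxx and Cbx5, and all other neighbours in that order were apart in both control libraries. After Hnrnpk siRNA, Cbx5 stood second, above Daxx and Morc2a. Fam208a was then next to last, with values overlapping those of Pphln1.

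**Figure D1:**
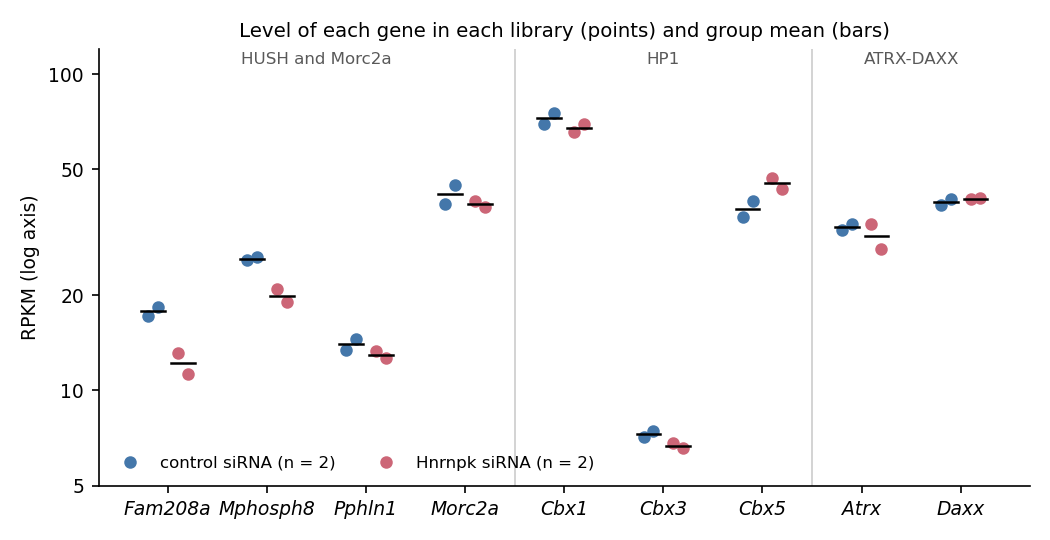
RPKM (log axis) of the 9 genes in the 2 control siRNA and 2 Hnrnpk siRNA libraries; points are libraries and black bars are group means. The Fam208a and Mphosph8 points after Hnrnpk siRNA lie below both control points, and the Cbx5 points lie above them. Those of Pphln1, Cbx1 and Cbx3, which were not called, also lie below both control points, and those of Morc2a, Atrx and Daxx overlap the control range. Groups that do not overlap were found for 84.7% of all genes tested.

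Fam208a encodes TASOR, the scaffold of HUSH (ENSMUSG00000040651, GRCm38 chromosome 14, 27428834 to 27483555, plus strand, protein coding). It had 17.2 and 18.4 RPKM after control siRNA and 13.1 and 11.3 RPKM after Hnrnpk siRNA. Both Hnrnpk siRNA libraries were below both control libraries, and the lowest was replicate 2. The group values were 17.8 ± 0.823 and 12.2 ± 1.29 RPKM (SD, n = 2 each), and the log2 change was -0.53 (SE 0.0835, 95% interval -0.71 to -0.34, limma adjusted p = 0.000378). The call held under all 15 alternative settings, with log2 changes from -0.67 to -0.39. It came closest to the threshold with no filter on low values (limma adjusted p = 0.0468).

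Mphosph8 encodes MPP8, the chromodomain subunit (ENSMUSG00000079184, chromosome 14, 56668248 to 56697430, plus strand, protein coding). It had 25.8 and 26.4 RPKM after control siRNA and 20.9 and 19.01 RPKM after Hnrnpk siRNA. The groups did not overlap, and the 2 control libraries lay very close together. The means were 26.1 ± 0.402 and 19.9 ± 1.32 RPKM (SD, n = 2 each), with a log2 change of -0.38 (SE 0.0694, 95% interval -0.54 to -0.22, limma adjusted p = 0.000909). This call also held under all 15 alternatives, from -0.47 to -0.31, and came closest to the threshold with no filter on low values (limma adjusted p = 0.0349).

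Pphln1 encodes periphilin, the third HUSH subunit (ENSMUSG00000036167, chromosome 15, 93398350 to 93491510, plus strand, protein coding). It had 13.4 and 14.6 RPKM in control and 13.3 and 12.6 RPKM after Hnrnpk siRNA. The groups did not overlap, but the higher Hnrnpk siRNA library nearly touched the lower control library. Groups that do not overlap were found for 84.7% of all genes tested, and for 6 of the 9 genes described here. The log2 change of -0.10 (SE 0.0734, 95% interval -0.27 to 0.064, limma adjusted p = 0.245) was not called.

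Within each library, the ratio of Fam208a to Pphln1 does not depend on how libraries are scaled. It was 1.29 and 1.26 in control and 0.985 and 0.893 after Hnrnpk siRNA. For Mphosph8 over Pphln1 the ratio was 1.93 and 1.81 in control and 1.565 and 1.503 after Hnrnpk siRNA. Both ratios were lower in both Hnrnpk siRNA libraries than in either control library. Mphosph8 over Fam208a was 1.4999 and 1.44 in control and 1.59 and 1.68 after Hnrnpk siRNA. In these values Fam208a was lower relative to Mphosph8. The limma confidence intervals of their log2 changes overlapped (-0.71 to -0.34 for Fam208a and -0.54 to -0.22 for Mphosph8). With transcript length trends removed, an alternative chosen after seeing the data, the log2 changes were nearly equal, at -0.39 for Fam208a and -0.38 for Mphosph8. With GC trends removed they were further apart, at -0.67 and -0.47. The ratio itself was not recomputed under these settings, and the part of length and GC trends in it was not tested. With 2 libraries a group, an exact permutation test of such a ratio cannot give a two-sided p below 0.333, and none was run.

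Morc2a, the ATPase gene (ENSMUSG00000034543, chromosome 11, 3649191 to 3690477, plus strand, protein coding), had 38.9 and 44.6 RPKM in control and 39.6 and 38.1 RPKM after Hnrnpk siRNA. The groups overlapped, and control replicate 2 was above the other 3 libraries. The log2 change was -0.098 (SE 0.0762, 95% interval -0.27 to 0.073, limma adjusted p = 0.276) and was not called. Without control replicate 1 it was -0.20 and called (adjusted p = 0.0405), and without control replicate 2 it was 0.00083, with adjusted p between 0.0405 and 0.994 across the 15 alternatives. With libraries scaled to the same RPKM sum it was -0.19 and called at an adjusted p of 0.0463.

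**Figure D2:**
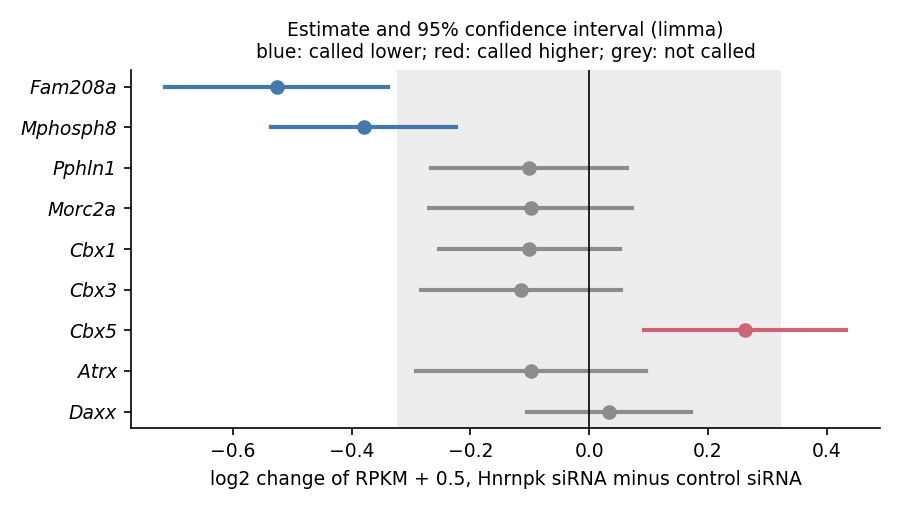
Log2 change of RPKM + 0.5 (Hnrnpk siRNA minus control siRNA) of each gene as a point with its 95% confidence interval from limma; the grey band spans plus and minus the median size of change over all genes tested (0.32). Fam208a and Mphosph8 lie left of 0, Cbx5 lies right of it, and the intervals of the other 6 genes include 0.

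The HP1 genes split. Cbx5 rose, while Cbx1 and Cbx3 were not called. Cbx5 encodes HP1α (ENSMUSG00000009575, chromosome 15, 103191544 to 103239816, minus strand, protein coding). It had 35.5 and 39.7 RPKM in control and 47.1 and 43.3 RPKM after Hnrnpk siRNA. Both Hnrnpk siRNA libraries were above both control libraries, with replicate 1 the highest. The means were 37.6 ± 2.998 and 45.2 ± 2.72 RPKM (SD, n = 2 each), a log2 change of 0.26 (SE 0.0755, 95% interval 0.093 to 0.43, limma adjusted p = 0.0116). The direction held under all 15 alternatives, from 0.17 to 0.41, but the call was lost in 5. These were scaling to the same RPKM sum (adjusted p = 0.0619), removing GC trends (0.0571), no filter on low values (0.127), leaving out control replicate 1 (0.0677) and leaving out Hnrnpk siRNA replicate 1 (0.0851), over a range of adjusted p of 0.00111 to 0.127.

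Cbx1, the HP1β gene (ENSMUSG00000018666, chromosome 11, 96789127 to 96808640, plus strand, protein coding), had 69.6 and 75.5 RPKM in control and 65.6 and 69.5 RPKM after Hnrnpk siRNA. The groups did not overlap, but the lower control library and the higher Hnrnpk siRNA library were almost equal. The log2 change of -0.10 (SE 0.0677, 95% interval -0.25 to 0.051, limma adjusted p = 0.211) was not called, and it was called only when libraries were scaled to the same RPKM sum (-0.19, adjusted p = 0.0216) among the 15 alternatives, whose adjusted p ran from 0.0216 to 0.657.

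Cbx3, the HP1γ gene (ENSMUSG00000029836, chromosome 6, 51470360 to 51483704, plus strand, protein coding), had the lowest level of the 9. It was listed at 7.11 and 7.45 RPKM in control and at 6.81 and 6.56 RPKM after Hnrnpk siRNA, with no overlap. The log2 change was -0.11 (SE 0.0751, 95% interval -0.28 to 0.054, limma adjusted p = 0.201) and was not called; with GC trends removed it was -0.23 and called (adjusted p = 0.0150), and with the same RPKM sum it was -0.20 (adjusted p = 0.0494), over a range of 0.0150 to 0.535. The level of Cbx3 is uncertain. Its longest protein-coding transcript (1889 bases) shares 33.2% of its length, at 95% identity or more, with 9 other annotated genes, most of them processed pseudogenes of Cbx3. Of these copies, Gm6984 shares 552 bases at 99.8% identity and was listed at 0.161 to 0.470 RPKM, and Gm10068 shares 552 bases at 99.6% and was listed at 0.0472 to 0.0961 RPKM. The sources used here do not say how reads matching several places were counted.

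The summed level of the HP1 genes was 112 and 123 RPKM in control and 120 and 119 RPKM after Hnrnpk siRNA, so the groups overlapped. The shares within that sum were apart. Cbx5 made up 31.6% and 32.4% of the sum in control and 39.4% and 36.2% after Hnrnpk siRNA. Cbx1 made up 62.0% and 61.5% in control and 54.9% and 58.3% after Hnrnpk siRNA, and Cbx3 6.34% and 6.07% against 5.70% and 5.497%. The ratio of Cbx5 to Cbx1 was 0.510 and 0.526 in control and 0.718 and 0.622 after Hnrnpk siRNA. These shares and ratios do not change with the scaling of libraries, and the groups did not overlap in any of them. The shares are parts of the same sum and the ratio uses the same values, so they are not separate observations. Groups that do not overlap were found for 84.7% of all genes tested. GC and length trends can still bear on them: the log2 change of Cbx5 was 0.17 with GC trends removed and 0.41 with transcript length trends removed.

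**Figure D3:**
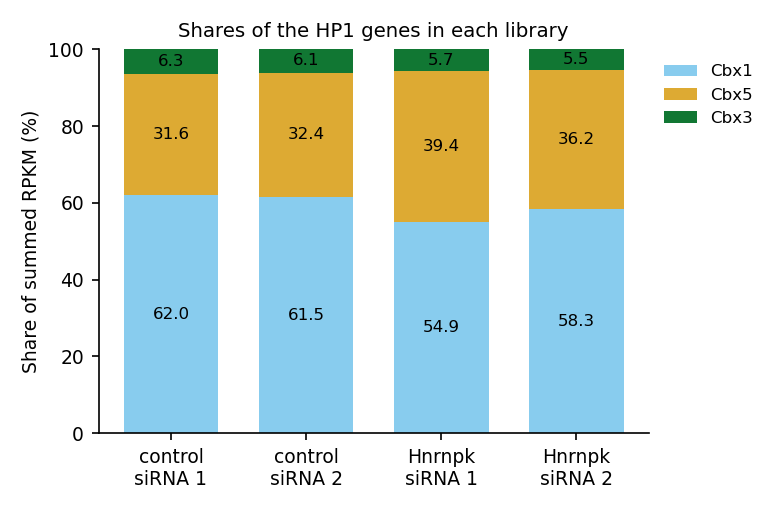
Share (%) of Cbx1, Cbx5 and Cbx3 in their summed RPKM, 1 bar for each library. The Cbx5 share is 31.6% and 32.4% with control siRNA and 39.4% and 36.2% with Hnrnpk siRNA.

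Atrx, the remodeller gene (ENSMUSG00000031229, chromosome X, 105797615 to 105929403, minus strand, protein coding), had 32.2 and 33.7 RPKM in control and 33.7 and 28.0 RPKM after Hnrnpk siRNA. Hnrnpk siRNA replicate 1 lay within the control values and replicate 2 below them. The log2 change was -0.098 (SE 0.0860, 95% interval -0.29 to 0.095, limma adjusted p = 0.335) and was not called. Leaving out Hnrnpk siRNA replicate 1 gave -0.23, called at an adjusted p of 0.0442, leaving out replicate 2 gave 0.031, and removing GC trends gave -0.23, called at 0.0262, with adjusted p between 0.0262 and 0.780 across the 15 alternatives. With transcript length trends removed, an alternative chosen after seeing the data, it was 0.066. Atrx is X-linked, and the labels give the cells as female. The Y-linked genes Ddx3y, Eif2s3y, Kdm5d and Uty were listed at 0.0117 to 0.460 RPKM in the 4 libraries, and Xist was not analysed here. These values do not settle the sex of the cells.

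Daxx, the chaperone gene (ENSMUSG00000002307, chromosome 17, 33909414 to 33915590, plus strand, protein coding), moved least of the 9. It had 38.6 and 40.4 RPKM in control and 40.2 and 40.5 RPKM after Hnrnpk siRNA, and the groups overlapped. The log2 change was 0.033 (SE 0.0616, 95% interval -0.11 to 0.17, limma adjusted p = 0.650), and its sign turned under scaling to the same RPKM sum (-0.054) and quantile normalization (-0.011). On the ratio scale that interval runs from 0.9296 to 1.126. The ratio of Atrx to Daxx was 0.834 in both control libraries and 0.836 and 0.692 after Hnrnpk siRNA.

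**Figure D4:**
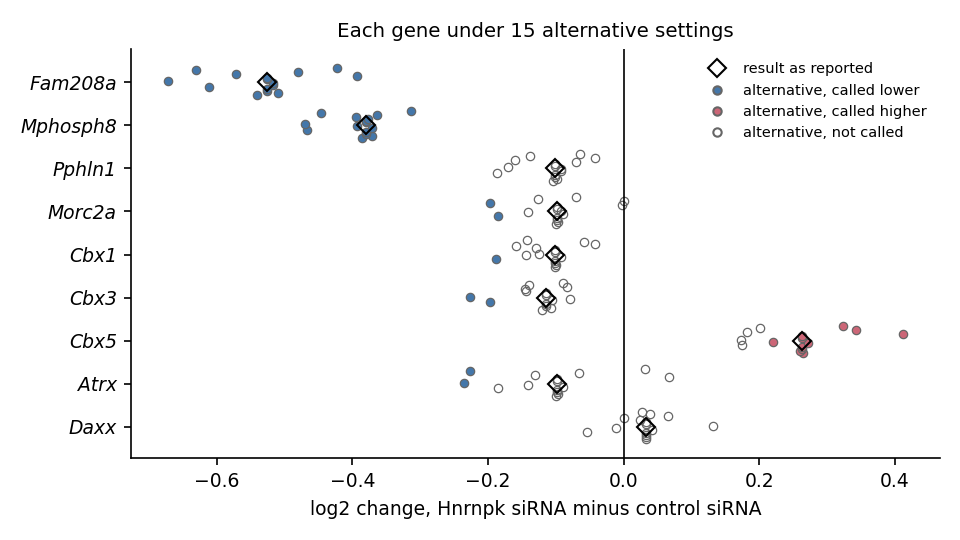
Log2 change (Hnrnpk siRNA minus control siRNA) of each gene as reported (diamonds) and under the 15 alternative settings (circles), filled where called. All Fam208a and Mphosph8 circles are filled, 10 of the 15 Cbx5 circles are filled, and the Morc2a, Atrx and Daxx circles lie on both sides of 0.

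Transcripts of some of the 9 genes overlap other genes. The Fam208a transcript shares a stretch of 1516 bases with Ccdc66, which lies next to it and had 10.6 and 10.1 RPKM in control and 10.2 and 9.33 RPKM after Hnrnpk siRNA (log2 change -0.079, limma adjusted p = 0.382). In all, 23.3% of the Fam208a transcript is shared with Ccdc66, whose groups overlapped. The first 483 bases of Morc2a are shared with Tug1, an antisense RNA gene, and 302 bases of Mphosph8 with the noncoding gene Gm16973; neither was analysed here. The labels give no strandedness, so reads from such overlaps cannot be assigned to 1 gene. Short stretches of Fam208a and Pphln1, under 200 bases each, also occur in many other transcripts. Cbx1, Cbx5, Atrx and Daxx shared no stretch of 100 bases or more at 95% identity with another annotated transcript.

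The HP1 genes Cbx3 and Cbx5 each start opposite a gene of the hnRNP family. Both of those neighbours were called, beside 67.2% of all genes tested, and a further neighbour with values, Zcrb1, was not. The neighbours were taken as genes on the other strand that start within 1000 bases, a choice made after the values of the 9 genes were known. Hnrnpa1 starts 616 bases from Cbx5 and had 33.1 and 30.9 RPKM in control and 14.5 and 15.7 RPKM after Hnrnpk siRNA, so it was lower in both libraries where Cbx5 was higher (log2 change -1.06, SE 0.0706, limma adjusted p = 1.77e-06). Hnrnpa1 shares 58.5% of its longest transcript with other genes, so its level is uncertain. Hnrnpa2b1 starts 466 bases from Cbx3 and rose from 295 and 323 RPKM to 409 and 417 RPKM (log2 change 0.42, SE 0.0726, limma adjusted p = 0.000653), where Cbx3 was not called. Zcrb1, an RNA-binding protein gene that starts 16 bases from Pphln1, had 8.63 and 8.33 RPKM in control and 7.34 and 7.64 RPKM after Hnrnpk siRNA (log2 change -0.17, limma adjusted p = 0.0658), and neither gene of that pair was called.

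The other genes of these pathways were taken from 5 lists. Of 61 genes, 58 were tested, 11 were higher, 23 were lower and 24 were not called, 58.6% called beside 67.2% of all genes tested. Their median log2 change was -0.12, against -0.015 over all genes tested and -0.10 over the 9 genes. Named genes below are those with the largest change in each list, up to 3, and a gene could be in more than 1 list.

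Among 9 tested partners of HUSH and MORC proteins, 3 were higher and 1 was lower. Morc4, another MORC ATPase, rose from 1.87 and 1.67 to 3.44 and 3.15 RPKM (log2 change 0.74). The gene 2810474O19Rik, now called Resf1, whose product promotes silencing with SETDB1, rose from 31.3 and 35.2 to 56.7 and 49.6 RPKM (log2 change 0.67). Morc1, a MORC gene of germ cells, fell from 38.4 and 38.5 to 23.0 and 22.3 RPKM (log2 change -0.75). The highest limma adjusted p of these 3 was 8.23e-05. Setdb1 itself had 35.2 and 36.1 RPKM in control and 33.3 and 32.4 RPKM after Hnrnpk siRNA (log2 change -0.12, limma adjusted p = 0.114) and was not called, as were Atf7ip, the SETDB1 cofactor, and Fam208b, the paralog of Fam208a, listed as BC016423 (log2 changes -0.074 and -0.14).

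Of 11 tested H3K9 methyltransferase and demethylase genes, 1 was higher and 4 were lower. Suv39h1, an H3K9 methyltransferase that itself binds HP1, rose from 6.20 and 5.62 to 11.3 and 11.9 RPKM (log2 change 0.91, limma adjusted p = 7.77e-06), and 23.5% of its transcript is shared with another gene. Ehmt2, which encodes G9a, a mono- and dimethyltransferase, fell from 48.3 and 49.7 to 30.3 and 31.9 RPKM (log2 change -0.65), and Kdm4c, a demethylase, from 16.3 and 16.6 to 13.3 and 13.5 RPKM (log2 change -0.28). Trim28, which recruits SETDB1 and binds HP1, had 968 and 1053 RPKM in control and 1038 and 1089 RPKM after Hnrnpk siRNA; its log2 change of 0.074 was not called (limma adjusted p = 0.445).

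Of 18 tested HP1 partners, 1 was higher, 8 were lower and 9 were not called. Chaf1b, a subunit of the chromatin assembly factor CAF-1, fell from 32.9 and 28.1 to 18.4 and 18.2 RPKM (log2 change -0.72). Lbr, the lamin B receptor that tethers heterochromatin to the nuclear envelope, fell from 125 and 117 to 84.0 and 80.9 RPKM (log2 change -0.55), and 12.5% of its transcript is shared with another gene. Sgol1, which encodes shugoshin, a protector of centromeric cohesion, rose from 26.0 and 25.3 to 38.7 and 39.2 RPKM (log2 change 0.59). The highest limma adjusted p of these 3 was 5.64e-05.

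Of 15 tested genes of H3.3 deposition, PML bodies and ATRX-DAXX partners, 4 were higher and 7 were lower. Rad50, of the MRE11 complex that binds ATRX, fell from 40.8 and 40.8 to 15.4 and 13.9 RPKM (log2 change -1.45, the largest change in the 5 lists). Hira, the chaperone that deposits H3.3 in a pathway separate from ATRX and DAXX, fell from 26.7 and 27.1 to 13.3 and 14.1 RPKM (log2 change -0.95), and 66.0% of its transcript is shared with another gene. Asf1a, a chaperone that hands H3.3 to HIRA, rose from 20.5 and 26.0 to 32.2 and 34.6 RPKM (log2 change 0.52), and 68.8% of its transcript is shared. The H3.3 genes H3f3a and H3f3b were not called, with log2 changes of -0.023 and 0.15; 32.5% and 21.8% of their transcripts are shared with other genes.

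Of the 7 other chromodomain readers, all tested, 2 were higher and 3 were lower. Cbx7, a Polycomb chromobox gene, fell from 60.1 and 58.5 to 41.5 and 43.0 RPKM (log2 change -0.48). Cbx8, a Polycomb chromobox gene at a low level, rose from 0.347 and 0.326 to 1.01 and 1.01 RPKM (log2 change 0.85), a change understated by the added 0.5 RPKM. Its control mean of 0.337 RPKM was under the filter, which it passed only through the Hnrnpk siRNA libraries, so this call could only be higher. The higher limma adjusted p of this pair was 8.83e-05.

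**Figure D5:**
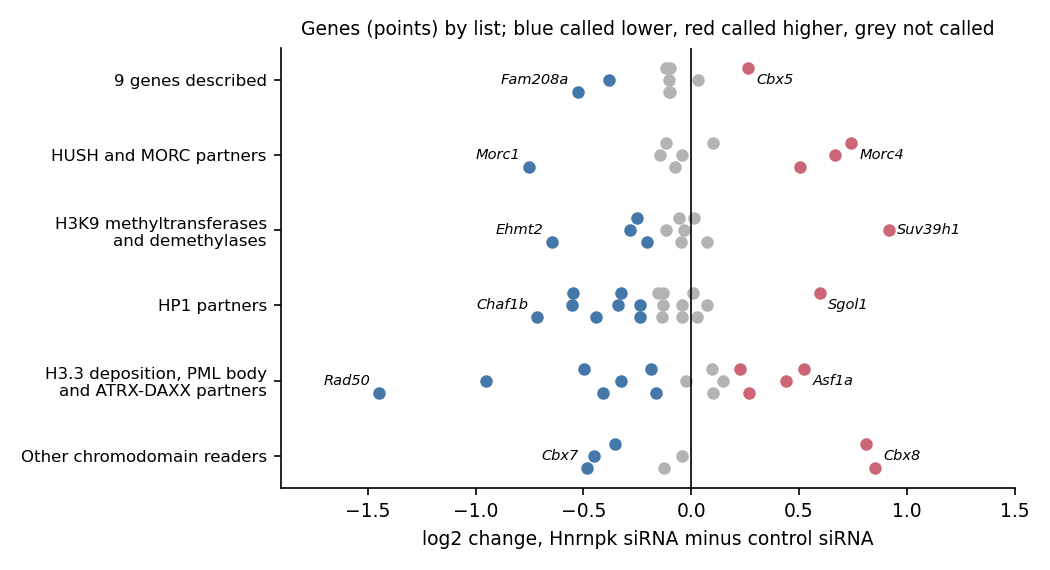
Log2 change (Hnrnpk siRNA minus control siRNA) of each tested gene as a point, for the 9 genes and the 5 partner lists; the gene at each end of a row is named. The 9 genes span -0.53 to 0.26, and the partner genes span -1.45 (Rad50) to 0.91 (Suv39h1).

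By pattern over the 4 libraries, the genes nearest to Cbx5 were Pcf11, Gm17635 and Tsga14. Likeness was the root mean square difference of log2(RPKM + 0.5), centred on each gene's mean over the libraries, which was 0.0153, 0.0158 and 0.0179. Nearest to Fam208a were Chd9, Klf1 and Qser1, at 0.0214, 0.0220 and 0.0286. Chd9 went from 15.4 and 16.2 to 11.3 and 9.93 RPKM, with replicate 2 the lowest library as for Fam208a. These likenesses over 4 libraries among 12486 genes are a description and carry no test.

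The cells carried transcripts of their labelled type. All 8 embryonic stem cell markers were tested and summed to 3908 and 3788 RPKM in control and 4554 and 4880 RPKM after Hnrnpk siRNA. Of them 2 were higher, 3 lower and 3 not called, 62.5% called beside 67.2% of all genes tested. The higher sum rested on Dppa5a: without it the markers summed to 2588 and 2511 RPKM in control and 2391 and 2429 RPKM after Hnrnpk siRNA. Sums of the markers of other states also differed between the groups. Their counts of calls stand beside 32.2% higher and 35.0% lower over all genes tested. Of 9 two-cell stage markers listed, 7 had a row, and their sum was 0.513 and 0.589 RPKM in control and 35.5 and 41.9 RPKM after Hnrnpk siRNA. All 7 had a control mean under 0.5 RPKM and passed the filter only through the Hnrnpk siRNA libraries, so their calls had to be higher and their count supports nothing. Of 8 primitive endoderm markers listed, 6 were tested and called higher, Pdgfra having passed the filter only through the Hnrnpk siRNA libraries, with sums over the 8 of 12.03 and 11.83 against 53.1 and 55.1 RPKM. Of 6 tested trophectoderm markers of 8 listed, 5 were higher and 1 lower, with sums of 72.7 and 69.6 against 96.7 and 102 RPKM. The 8 fibroblast markers summed to 9.46 and 8.02 against 4.08 and 4.32 RPKM, 2 were tested and both were lower, and Fap was listed at 0 in all libraries. Most of that fall lay in Thy1: without it the sums were 2.57 and 2.83 against 1.87 and 2.04 RPKM, and 6 of the 8 had a mean under 0.5 RPKM. The part of these cell states in the changes of Fam208a, Mphosph8 and Cbx5 was not tested.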

How the data were processed

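RNA-seq was made from 4 libraries of TT2 cells (2 control siRNA, 2 Hnrnpk siRNA). The authors deposited RPKM values per gene in 1 column per library. The submitters' processing notes name mm9, BWA and SAMtools with no role or order; no source used here names the counting tool, the annotation or the handling of reads with several matches. The labels speak of ribosomal RNA depletion and also of poly(A) selection.

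Positions, transcript lengths and GC content came from GENCODE M21 on GRCm38 by Ensembl identifier (20551 of 22138 identifiers, 92.8%), not from mm9. Values were analysed as log2(RPKM + 0.5), which understates the change of low genes, keeping the 12486 genes whose mean reached 0.5 RPKM. The test was limma 3.58.1 (R 4.3.3), two-sided, fitted with a mean-variance trend (7.47 prior degrees of freedom), with Benjamini-Hochberg adjustment over all genes tested. In simulated data for 12486 genes, 68, 66 and 66 genes were given log2 changes of 0.25, 0.5 and 1. Of these, limma recovered 25%, 100% and 100%, with 13 false calls among 162. Far fewer genes changed there than the 67.2% called in these data, which makes the adjusted threshold stricter. These shares therefore do not carry over to the comparison described here. Shared sequence was searched with BLAST 2.17.0 at 95% identity over at least 100 bases.

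Depth was read from the steps between low values of single-exon genes: 28.7% to 29.8% of these lay within 0.02 of a whole number; whole reads were therefore not recovered, and a count model was not fitted. The commonest step made 1 RPKM over 1 kilobase worth about 124, 122, 111 and 110 reads or read pairs in the control libraries 1 and 2 and the Hnrnpk siRNA libraries 1 and 2, in that order. Whether these are reads or pairs could not be settled.

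The 9 genes and the lists were chosen with earlier results of these data known. Named genes are the 9; Hnrnpk, Setdb1, Trim28, H3f3a and H3f3b; the 3 called genes with the largest change in each of the 5 partner lists; the Y-linked genes; up to 2 members of a marker list; genes that share sequence with the 9; and the 3 genes nearest in pattern to the largest rise and the largest fall. Atf7ip, Fam208b and the neighbours at opposite starts were named outside this rule, after values were seen. A gene that the rule names is not reported here. Alternatives were an added 0.1 or 1 RPKM, no filter or a minimum mean of 1 RPKM, scaling to the same RPKM sum, median ratios, quantile normalization, removal of GC trends, limma without the trend, a replicate block, each library left out in turn and, chosen after seeing the data, removal of transcript length trends.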

Additional observations from a re-analysis of the deposited data

How the results depend on the processing

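Fam208a, Mphosph8 and Hnrnpk kept their direction and their call under all 15 alternatives, and Pphln1 stayed uncalled with the same sign. Pphln1 came close to the threshold with the same RPKM sum (-0.19, limma adjusted p = 0.0511) and with GC trends removed (-0.17, limma adjusted p = 0.0528). With 2 libraries a group, calls rest on a variance that limma shares between genes, and with a library left out the lone library is assumed to vary like the others. Scaling to the same RPKM sum gave 0 of the 9 genes higher and 5 lower, with log2 changes of 0.18 for Cbx5 (no longer called), -0.19 for Morc2a, -0.19 for Cbx1 and -0.20 for Cbx3 (all newly called), and -0.054 for Daxx (sign turned). Removing GC trends gave 0 higher and 4 lower, with 0.17 for Cbx5 (no longer called), and -0.23 for both Cbx3 and Atrx (newly called). No filter on low values gave 0 higher, with Cbx5 at 0.26. Quantile normalization turned Daxx to -0.011, and removing transcript length trends turned Atrx to 0.066. The cause was not tested for any of these.

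Leaving out 1 library at a time gave 6792 to 8516 genes called, 0 to 1 of the 9 genes higher and 2 to 3 lower, and 9 to 11 partner genes higher and 17 to 22 lower. The log2 changes ran from -1.76 to -1.70 for Hnrnpk, -0.63 to -0.42 for Fam208a, -0.45 to -0.31 for Mphosph8, -0.16 to -0.041 for Pphln1, -0.20 to 0.00083 for Morc2a, -0.16 to -0.043 for Cbx1, -0.15 to -0.084 for Cbx3, 0.18 to 0.34 for Cbx5, -0.23 to 0.031 for Atrx and 0.00076 to 0.065 for Daxx. Morc2a turned to 0.00083 without control replicate 2, and Atrx to 0.031 without Hnrnpk siRNA replicate 2. Shares of the HP1 sum, Hnrnpk siRNA minus control in percentage points, ran from -6.89 to -3.52 for Cbx1, -0.743 to -0.476 for Cbx3 and 4.23 to 7.40 for Cbx5.

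The libraries share replicate numbers, but nothing in the labels pairs them, and deviations of same-numbered libraries correlated at 0.0267 across genes. With the replicate block, 8622 genes were called against 8396 without it, and none of the calls on the 9 genes changed (Fam208a -0.53, Mphosph8 -0.38, Cbx5 0.26).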
